A study of Mus musculus with 1699 samples.

Results

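Midbrain dopamine neurons that carry abundant mRNA of Slc6a3, the dopamine transporter (DAT), can be divided by whether they also carry Aldh1a1, which encodes a retinaldehyde dehydrogenase, or Vip, which encodes vasoactive intestinal peptide. The cells described here are those around birth that carried little or none of either. They were defined as heterozygous Pitx3eGFP/wt cells of embryonic day (E) 18.5, postnatal day (P) 1 or P7 with more than 100000 reads, an Slc6a3 level over 150 RPKM (reads per kilobase of gene model, scaled to the mapped reads of the cell), and Aldh1a1 and Vip each at 10 RPKM or less. The rule held for 60 libraries, which came from 56 distinct cells as set out below, hereafter AV-low cells. They were 8.78% of the 638 distinct heterozygous cells of the 3 stages (exact 95% interval 6.70 to 11.2) and 26.4% of those with Slc6a3 over 150 RPKM (20.6 to 32.9). The whole series held 1699 libraries from 1642 distinct cells, 1617 of them over 100000 reads. Cells were kept here on reads alone, whereas the paper also removed libraries of low quality and cells that clustered as oligodendrocytes. The paper reports that Slc6a3-high groups were underrepresented among the sequenced cells relative to tissue sections. Shares of sorted cells are therefore not shares in the tissue.

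Each library was 1 cell of mouse ventral midbrain, sorted for green fluorescence and sequenced with Smart-seq2, a protocol that reads full-length polyadenylated transcripts. In every cell at least 1 Pitx3 allele (Pitx3tm1Mli) carried eGFP in place of a functional gene, so heterozygous cells had 1 working copy and the homozygous Pitx3eGFP/eGFP cells of E13.5 and P1 had none. Heterozygous cells of E13.5, E15.5 and P90 were used only for comparison. The sort was on eGFP protein, and the eGFP transcript was over 10 RPKM in 48 of the 56 AV-low cells. Several animals were used per stage, but no animal was named for a cell, so a stage of one genotype was treated as 1 sample and the cells in it as repeated measurements. No test of a difference was therefore possible. Intervals are exact (Clopper-Pearson) for shares and Newcombe for differences of shares, and they cover counting error only. The comparison groups from the same 3 stages were 120 cells with Slc6a3 over 150 RPKM and Aldh1a1 over 10 RPKM (Aldh1a1 cells) and 36 with Vip over 10 RPKM (Vip cells, of which 6 also had Aldh1a1 over 10 RPKM). Shares over a group pool its stages. By stage the Vip cells were 9 of E18.5, 15 of P1 and 12 of P7, so their share differences cannot be told apart from those of stage. The Vip cells fell into 22 with Vip of 1224 to 19995 RPKM and 14 nearer the limit, with 10.3 to 116.3 RPKM, which included all 6 with Aldh1a1. A limit of 1000 RPKM, set after seeing the values, separates them below, and those over it are called Vip-high cells. Of the 120 Aldh1a1 cells, 10 had Aldh1a1 of 20.4 to 118.5 RPKM and the others more.

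Some libraries labelled P1 and P7 shared a cell. In 57 pairs, a P1 library made without RNA spike-in and a P7 library with the same number in their titles had profiles that correlated at 0.968 to 0.997 over 16311 gene entries, while no other 2 libraries of the series exceeded 0.827. No entry had at least 50 reads in 1 library of such a pair and 0 in the other, against 1117 or more entries for randomly drawn other combinations of the same sets. Another 52 numbers shared by both sets did not form such pairs (0.290 to 0.584). The labels do not say which of the 2 stages a paired cell had, so each pair was joined into 1 cell of stage "P1 or P7", counted once and kept out of comparisons within a stage. Of the 7 P7 libraries that met the rule, 5 were in such pairs, and 4 of the 11 P1 libraries without spike-in. That left 29 AV-low cells of E18.5, 20 of P1, 2 of P7 and 5 of P1 or P7. The stage of the remaining P1 cells without spike-in and of the P7 cells could not be checked in the same way.

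As background, dopamine neurons make their transmitter with tyrosine hydroxylase (Th) and aromatic amino acid decarboxylase (Ddc), load it into vesicles with Slc18a2 and take it back up through Slc6a3. Their subtypes in the substantia nigra and the ventral tegmental area differ in calcium-binding proteins, receptors and the trophic factors they make or bind. Ndnf and Ntf3, the other marker genes proposed for these cells, encode secreted neurotrophic proteins, and Ntf3 (neurotrophin-3) is the preferred ligand of the receptor encoded by Ntrk3.

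The study also designed padlock probes, which are circularised on a matching stretch of complementary DNA so that a transcript can be read in tissue sections. Targets of 8 of them are shown because they mark transcripts by which AV-low cells were chosen or in which they differed from Aldh1a1 cells. These are the 2 genes that AV-low cells carried at 10 RPKM or less, 4 genes found in a larger share of them than of Aldh1a1 cells (Ntf3, Lypd1, Oprk1, Vwc2l) and 2 found in a smaller share (Nrp1, Pitx3). Each is given 5′ to 3′ on the transcript strand. The lower-case stretch of 20 bases is carried by the 3′ arm of the probe, and the capitals mark the 20 bases carried by its 5′ arm. Every target lies in 1 coding exon, with positions on GRCm38 (mm10) from the GENCODE M21 transcripts.
Aldh1a1 (chr19:20630746-20630785, plus strand, exon 9 of 13): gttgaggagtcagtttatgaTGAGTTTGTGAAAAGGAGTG
Vip (chr10:5643999-5644038, plus strand, exon 5 of 7): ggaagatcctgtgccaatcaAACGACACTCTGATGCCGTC
Ntf3 (chr6:126102394-126102433, minus strand, exon 2 of 2): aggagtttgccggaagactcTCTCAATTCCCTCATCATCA
Lypd1 (chr1:125910483-125910522, minus strand, exon 2 of 3): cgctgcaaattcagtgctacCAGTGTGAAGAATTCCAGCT
Oprk1 (chr1:5602695-5602734, plus strand, exon 4 of 4): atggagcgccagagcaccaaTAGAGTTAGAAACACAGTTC
Vwc2l (chr1:70728804-70728843, plus strand, exon 2 of 4): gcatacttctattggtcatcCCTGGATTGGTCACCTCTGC
Nrp1 (chr8:128363300-128363339, plus strand, exon 2 of 17): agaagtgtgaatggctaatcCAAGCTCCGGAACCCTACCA
Pitx3 (chr19:46136449-46136488, minus strand, exon 4 of 4): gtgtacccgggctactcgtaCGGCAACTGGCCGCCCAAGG

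AV-low cells were 15.4% of the sorted cells of E18.5 (10.6 to 21.4) and 7.63% of those of P1 (4.72 to 11.5). At P7 they were 1.53% (0.185 to 5.41), and 8.77% (2.91 to 19.3) of the cells labelled both P1 and P7. Their share of the cells over 150 RPKM of Slc6a3 was 36.2% (E18.5), 20.6% (P1), 10.5% (P7) and 31.2% (P1 or P7). The cells came in 5 sets of libraries as the labels give them, with the joined cells as a further group. The 2 plates of E18.5 held 15 and 14 AV-low cells, the P1 plate with RNA spike-in 13 and the P1 cells without spike-in 7. Cells with RNA of the oligodendrocyte lineage (at least 3 of its markers over 10 RPKM) were kept in the denominators. They were 5.32% of the cells of E18.5, 14.504% at P1, 63.4% at P7 and 24.6% of P1 or P7, and without them the AV-low shares were 15.7% (10.7 to 21.9), 8.48% (5.18 to 12.9), 4.17% (0.509 to 14.3) and 11.6% (3.89 to 25.1). At P1 the share depended on the set, with 13.8% of 94 cells with spike-in and 4.17% of the larger set without, so a difference between stages cannot be told apart from one between sets. The 2 cells of P7 and the 5 of P1 or P7 were too few for a stage of their own in the comparisons across genes.

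Values of the 3 genes in the rule are a description. The lowest Slc6a3 levels in AV-low cells were 152.96 and 184.7 RPKM, the first a mean over a pair of which 1 library met the rule, and the nearest cells below the threshold had 147.1 and 141.1 RPKM. The highest Aldh1a1 level in an AV-low cell was 8.39 RPKM and the lowest in an Aldh1a1 cell was 20.4 RPKM. For Vip the corresponding values were 8.19 and 10.3 RPKM. Aldh1a1 was listed at 0 in 5 AV-low cells and Vip in 28. Slc6a3 itself varied widely within them. The 2 cells of P7 had 2744 and 4600 RPKM, and the 5 of P1 or P7 had 152.96, 248.03, 361, 708.6 and 5389 RPKM. The medians of the other sets ranged from 555 RPKM in P1 cells without spike-in to 1110 RPKM on the second E18.5 plate.

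The neuronal and dopaminergic identity in the label held for nearly all of them. All 56 cells had at least 3 of 8 neuron markers over 10 RPKM. Th was over 10 RPKM in 54 of 56, Ddc in 56, Slc18a2 in 55 and Nr4a2, a nuclear receptor needed for the dopaminergic phenotype, in 56. Of the other markers proposed, Ntf3 was common, in 42 of 56 cells, whereas Ndnf was found in 10 of 56, so most AV-low cells did not carry Ndnf over 10 RPKM. Both were proposed with earlier results of these data known, so these shares are a description. Read depth ranged from 567216 to 6371733 reads with a median of 1634480. A median of 8123.5 gene entries was detected per AV-low cell, against 7416.5 in Aldh1a1 cells. The difference had the same direction in each of the 5 sets, but not among the cells of P1 or P7 (7432 and 7504). Its part in the results below was not tested. Shares after every cell was thinned to 100000 reads are given beside the main ones for the first gene described.

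RNA of other cell types was present in a few cells. Of the 56 AV-low cells, 2 had at least 3 oligodendrocyte-lineage markers over 10 RPKM (6 of 120 Aldh1a1 cells), 1 had at least 3 astrocyte markers and 1 had 7 of 8 microglial markers. Sox10, Pdgfra, Gpr17, Mag and Mog of the oligodendrocyte list, and Aqp4, Gfap, Gja1 and S100b of the astrocyte list, were over 10 RPKM in none of the 56. The summed level of the 8 microglial markers had a median of 0 and a highest value of 8168 RPKM. The cell with microglial markers was of P1 or P7 and had C1qb at 1713 RPKM, Th at 5.99 RPKM, Pitx3 at 2.86 RPKM, eGFP listed at 0 and 5528 entries detected. It was 1 of the 2 AV-low cells without Th over 10 RPKM. Leaving out every cell with at least 3 markers of glia, microglia or vessels is among the alternatives in the closing section.

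Ntf3 and Bdnf, both neurotrophin genes, were higher in AV-low than in Aldh1a1 cells, as were 3 genes for trophic factor receptors (Gfra2, Gfra4, Ntrk2). Gfra1, which encodes the binding receptor for glial cell line-derived neurotrophic factor, and Kit were lower. On the scale of mean log2(RPKM + 1), averaged over E18.5 and P1 with equal weight, a difference past 1 in either direction was counted as higher or lower. This held for 5.56% of all 14307 entries tested (mean of at least 1 RPKM), with 4.58% higher, 0.979% lower and a median of 0.12. These values are the background for each list count against Aldh1a1 cells below. The share past the threshold was 4.68% with every library as deposited and 4.59% with the cells of P1 or P7 counted as P1. It was 10.3% without the P1 plate with spike-in, where E18.5 alone was left. Of 13 tested members of the neurotrophic list, 5 were higher (Ntf3, Bdnf, Gfra2, Gfra4, Ntrk2), 2 were lower (Gfra1, Kit) and the median was 0.87.

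Ntf3 was over 10 RPKM in 75% of AV-low cells (42 of 56, 61.6 to 85.6), in 27.5% of Aldh1a1 cells (33 of 120, 19.7 to 36.4) and in 19.4% of Vip cells (7 of 36). All 7 were among the 14 Vip cells nearer the limit, and none of the 22 Vip-high cells had Ntf3 over 10 RPKM (0 to 15.4%). Among the 426 cells with Slc6a3 of 150 RPKM or less, 3.76% had it, or 5.08% of those without oligodendrocyte-lineage markers. The share exceeded that of Aldh1a1 cells by 47.5 points (32.2 to 59.4), and after thinning the shares were 67.9% and 27.5%. The pattern was not even across sets. Ntf3 was over 10 RPKM in 11 of 15 and 13 of 14 AV-low cells on the E18.5 plates (medians 55.7 and 80.5 RPKM) and in 12 of 13 at P1 with spike-in (median 93.6 RPKM). It was over 10 RPKM in 3 of 7 at P1 without spike-in (median 0), in 1 of 2 at P7 and in 2 of 5 of P1 or P7. In Aldh1a1 cells the counts in the same order were 4 of 24, 6 of 18, 15 of 35, 7 of 27, 0 of 5 and 1 of 11, so the AV-low share was the larger in each. Single cells overlapped, with highest values of 258.2 RPKM in AV-low and 334.8 RPKM in Aldh1a1 cells. The set without spike-in stood apart in general. Of all entries tested in AV-low cells, 23.7% were lower and 7.68% higher at P1 without than with spike-in, whereas between E18.5 and P1 with spike-in 7.03% were higher and 5.77% lower at P1.

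Bdnf, which encodes brain-derived neurotrophic factor, was over 10 RPKM in 36 of 56 AV-low cells (64.3%), 29 of 120 Aldh1a1 cells (24.2%) and 17 of 36 Vip cells (47.2%). The difference from Aldh1a1 cells was 40.1 points (24.6 to 53.3), whereas the interval against Vip cells reached from -3.43 to 36.01 points. Ntrk2, the Bdnf receptor gene, was found in 85.7% of AV-low and 60% of Aldh1a1 cells, and Ntrk3, the Ntf3 receptor gene, in 37.5% and 17.5%. For Ntrk3 the direction turned at a limit of 50 RPKM (-1.31 points). Among AV-low cells those with the ligand were thus more frequent than those with its receptor for Ntf3, and less frequent for Bdnf. Gfra1 was over 10 RPKM in 57.1% of AV-low cells and 88.3% of Aldh1a1 cells, 31.2 points fewer (interval of the difference -44.98 to -17.2). Ret, the signalling subunit that Gfra1 works with, was found in 94.6% and 93.3%, a difference of 1.31 points (-8.50 to 8.21). Kit, a receptor tyrosine kinase gene, was in 42.9% and 60% of cells.

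**Figure D1:**
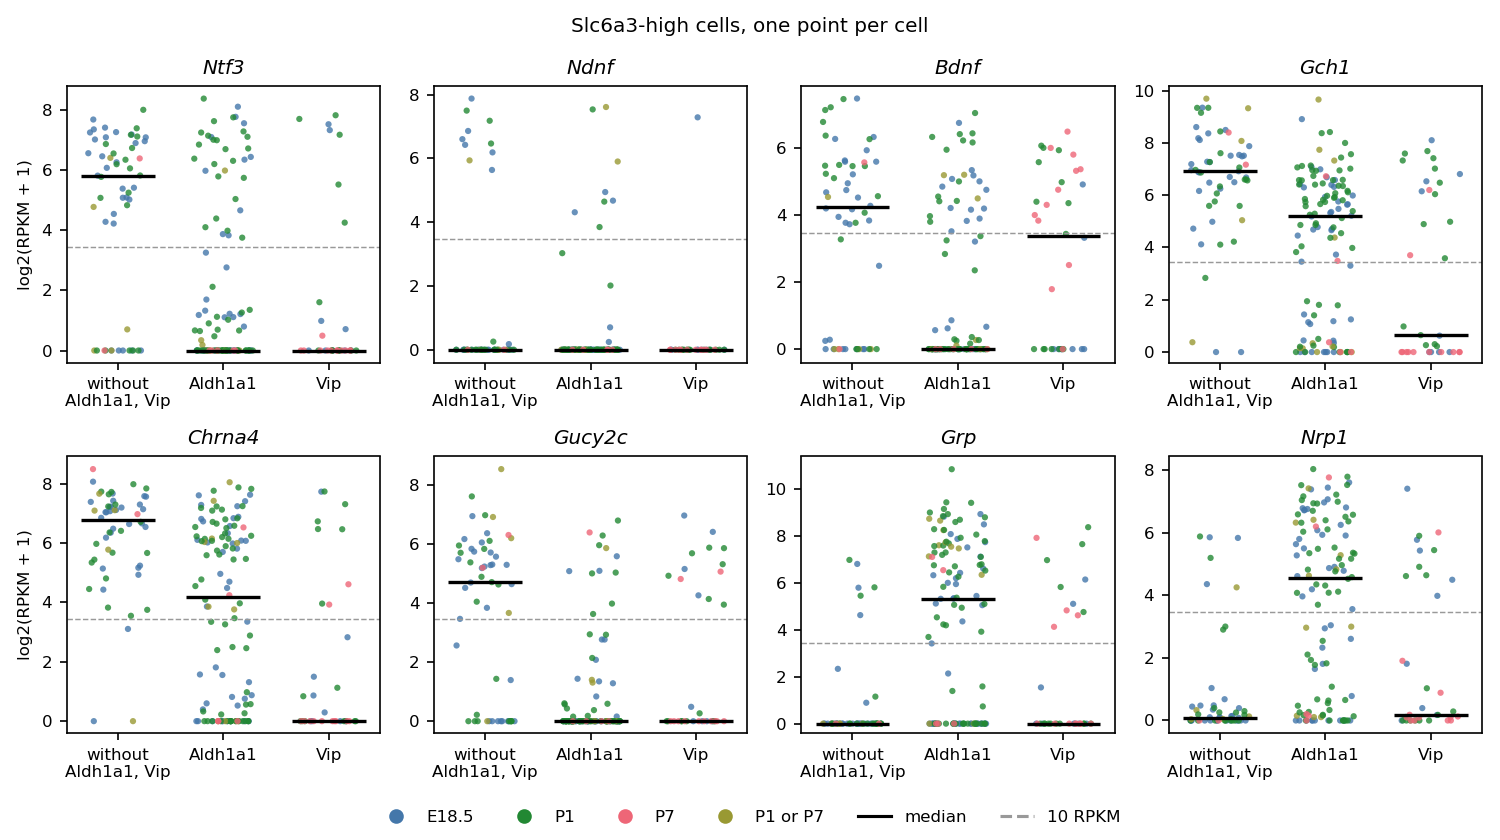
Levels of 8 genes in each Slc6a3-high cell, as log2(RPKM + 1) on the vertical axis, for the 56 AV-low, 120 Aldh1a1 and 36 Vip cells; colours mark the stage, black bars the median over cells and the dashed line 10 RPKM. Ntf3, Bdnf, Gch1, Chrna4 and Gucy2c had higher medians in AV-low than in Aldh1a1 cells and Grp and Nrp1 lower ones, with overlapping cells in every panel, while Ndnf was near 0 in most cells of all groups.

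Genes for making and packing dopamine lay within the threshold apart from one for its cofactor and one for its breakdown. Of 11 tested genes of dopamine synthesis, storage and breakdown, Gch1 and Maoa were higher in AV-low than in Aldh1a1 cells and none was lower (median 0.19). Gch1 encodes GTP cyclohydrolase 1, the first enzyme in making tetrahydrobiopterin, the cofactor of tyrosine hydroxylase. It was over 10 RPKM in 92.9% of AV-low cells (52 of 56), 65.8% of Aldh1a1 cells (79 of 120) and 44.4% of Vip cells (11 of the 14 nearer the limit and 5 of the 22 Vip-high cells). Its medians in AV-low cells were 144.8 and 117.7 RPKM on the E18.5 plates and 96.3 and 93.6 RPKM in the P1 sets with and without spike-in, and those of Aldh1a1 cells in the same order were 25.4, 24.9, 54.9 and 52.4 RPKM. Among cells of P1 or P7 the medians were 268.3 and 0.161 RPKM. The difference in mean log2(RPKM + 1) was 2.82 at E18.5 and 1.78 at P1. Maoa, which encodes monoamine oxidase A, was over 10 RPKM in 64.3% and 27.5%. Th, Ddc and Slc18a2 differed from Aldh1a1 cells by -0.44, -0.06 and 0.13 on the same log2 scale.

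Nicotinic receptor subunits differed in direction. Chrna4 was found in 94.6% of AV-low cells (53 of 56), 55% of Aldh1a1 cells and 25% of Vip cells (8 of the 14 nearer the limit and 1 of the 22 Vip-high cells), 39.6 points above Aldh1a1 cells (27.01 to 49.2). Chrna6, a subunit characteristic of dopamine neurons, was found in 82.1%, 95% and 36.1%, 12.9 points below Aldh1a1 cells (interval of the difference -25.1 to -3.28). All 13 Vip cells with Chrna6 were nearer the limit (13 of 14), against 0 of 22 Vip-high cells. Chrna6 in AV-low cells also differed by set, with medians of 357.5, 558 and 285.5 RPKM on the E18.5 plates and at P1 with spike-in, 96.6 RPKM at P1 without spike-in and 2.28 RPKM among the 5 cells of P1 or P7. Chrnb3 was in 91.1% of AV-low and 92.5% of Aldh1a1 cells, and in 52.8% of Vip cells (12 of 14 and 7 of 22). Of 18 tested genes for autoreceptors and excitability, Chrna4 was higher than in Aldh1a1 cells and Kcnip1, Kcnab1 and Chrna6 were lower. Lypd1, which encodes a membrane-anchored modulator of nicotinic receptors, was over 10 RPKM in 44.6% of AV-low, 5% of Aldh1a1 and 5.56% of Vip cells.

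**Figure D2:**
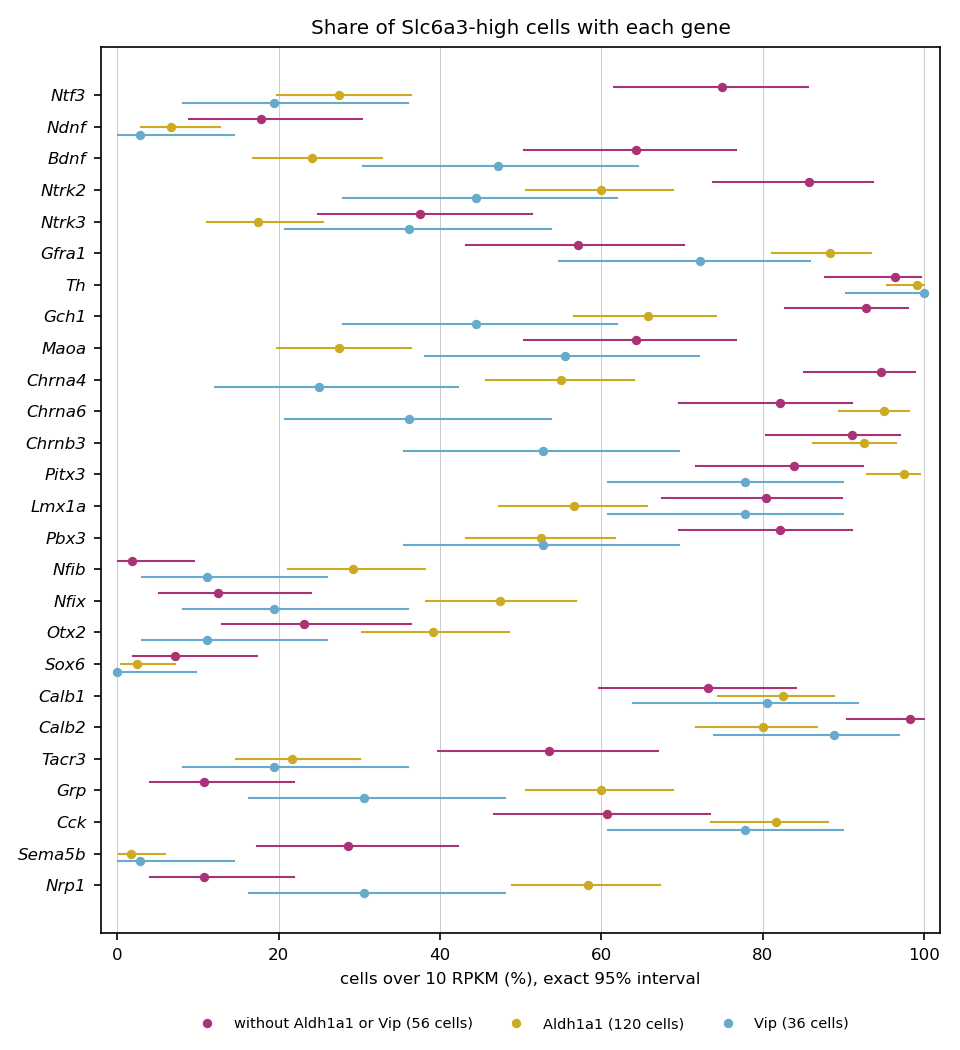
Percentage of cells over 10 RPKM for 26 genes (horizontal axis), with exact 95% intervals as lines, in AV-low, Aldh1a1 and Vip cells. Intervals of AV-low and Aldh1a1 cells were apart for genes such as Ntf3 (75% and 27.5%), Chrna4 (94.6% and 55%), Grp (10.7% and 60%) and Nrp1 (10.7% and 58.3%), and overlapped for Th, Chrnb3 and Calb1.

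A minority of the tested transcription factors of the dopamine lineage differed in level from Aldh1a1 cells. Lmx1a, a determinant of midbrain dopamine neurons, was found in 80.4% of AV-low and 56.7% of Aldh1a1 cells, and Pbx3, a homeodomain factor, in 82.1% and 52.5%. Pitx3 was lower, in 83.9% and 97.5% of cells, with differences in mean log2(RPKM + 1) of -1.55 at E18.5 and -2.25 at P1. The reporter read from the same locus was lower too, with eGFP (entry EGFP) medians of 85.5 and 206.1 RPKM in AV-low and Aldh1a1 cells on the first E18.5 plate and 24.997 and 182.7 RPKM at P1 without spike-in. For eGFP the order was the other way at P7, with 121.4 and 76.3 RPKM (2 and 5 cells), and among cells of P1 or P7, with 137.9 and 122.9 RPKM. Single cells overlapped in both genes. Otx2, a tegmental factor, was found in 23.2% and 39.2%. Of 21 tested factors 3 were higher than in Aldh1a1 cells (Lmx1a, Pbx3, Id4) and 2 lower (Pitx3, Otx2).

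Of the nuclear factor I genes, Nfib and Nfix were found in fewer AV-low than Aldh1a1 cells, whereas Nfia was rare in both. Nfib was over 10 RPKM in 1 of 56 (1.79%, 0.0452 to 9.55), against 35 of 120 Aldh1a1 cells (29.2%) and 56.1% of cells with Slc6a3 of 150 RPKM or less. Nfix was found in 7 of 56 (12.5%), 57 of 120 (47.5%) and 56.8% of those groups. Of the cells with Slc6a3 of 150 RPKM or less, 30.8% had at least 3 oligodendrocyte-lineage markers over 10 RPKM, and in the others Nfib was found in 47.5%, Nfix in 51.2% and Nfia in 30.8%. Nfia was over 10 RPKM in 1 of 56 AV-low cells (1.79%), 7 of 120 Aldh1a1 cells (5.83%) and 42.96% of all cells with Slc6a3 of 150 RPKM or less. It differed between AV-low and Aldh1a1 cells by -4.05 points (-9.95 to 4.17) and by -0.33 in mean log2(RPKM + 1), within the threshold. The Nfix share was lower in AV-low than in Aldh1a1 cells on the E18.5 plates (2 of 15 and 2 of 14 against 15 of 24 and 11 of 18), in the P1 sets with and without spike-in (2 of 13 and 1 of 7 against 19 of 35 and 6 of 27), at P7 (0 of 2 against 2 of 5) and among cells of P1 or P7 (0 of 5 against 4 of 11). In the list of transcription factors for Dat-low cells, 9 of which were tested, Nfib, Nfix and Tcf4 were lower than in Aldh1a1 cells and none was higher. That list was drawn up by the study on these libraries and is not independent evidence of a direction.

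Genes that distinguish nigral from tegmental neurons did not place AV-low cells on one side. Of 13 tested tegmental genes, Calb2, Tacr3, Pdia5 and Cadps2 were higher than in Aldh1a1 cells and Otx2, Grp and Cck were lower. Calb2, which encodes calretinin, was found in 98.2% of AV-low and 80% of Aldh1a1 cells, and its median was higher in AV-low cells in all 5 sets and among the cells of P1 or P7. Tacr3, the neurokinin B receptor gene, was found in 53.6% and 21.7%. Grp, which encodes gastrin-releasing peptide, was found in 10.7% and 60%, 49.3 points fewer (interval of the difference -59.4 to -35.3). Grp was over 10 RPKM in none of the 7 AV-low cells from P1 without spike-in, the 2 from P7 and the 5 of P1 or P7. Cck, the cholecystokinin gene, was found in 60.7% and 81.7%. Of 13 tested nigral genes, Lmo3 was lower and none was higher, and Sox6, a nigral transcription factor, was found in 7.14% and 2.5%, with 4.64 points between them (-1.67 to 14.6). The paper states that high levels of Sox6 could not be detected in these data.

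None of 5 tested genes of the glutamate and GABA phenotype passed the threshold against Aldh1a1 cells, which 5.56% of all entries passed. At that share, counts in lists as short as those here say little about a family. Slc17a6, the vesicular glutamate transporter gene, was over 10 RPKM in 44.6% of AV-low cells and 40.8% of Aldh1a1 cells, 3.81 points apart (-11.4 to 19.2), and 24 of the 25 AV-low cells with Slc17a6 also had Th. Gad1 was found in 2 and Gad2 in 2 of the 56. Of 10 tested retinoid genes Dhrs3, which encodes an enzyme that reduces retinaldehyde, was higher, in 64.3% against 19.2% of cells. Of 18 tested neuropeptide genes, Vgf and Dlk1 were higher and Cck and Grp lower. Of 14 tested maturation genes, Mkrn3 was higher and Cd24a and Sox4, genes of immature neurons, were lower. None of 9 tested genes of the dissociation and stress response passed the threshold. At least 3 of the 14 markers of that list were over 10 RPKM in 23 of 56 AV-low cells (41.1%), 28 of 120 Aldh1a1 cells (23.3%) and 14 of 36 Vip cells (38.9%). Their summed level had medians of 104.4, 105.2 and 102.03 RPKM and ranges of 1.06 to 577.4, 0 to 9388 and 0.816 to 525.8 RPKM, and its part in the results was not tested. Hspa1b was over 10 RPKM in no cell of the 3 groups.

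Among genes of axon guidance and adhesion, Sema5b, a transmembrane semaphorin gene, was found in 28.6% of AV-low cells (16 of 56), 1.67% of Aldh1a1 cells (2 of 120) and 2.78% of Vip cells (1 of 36). It was found in every set of AV-low cells, in 4 of 15 and 3 of 14 on the E18.5 plates, 2 of 13 and 3 of 7 in the P1 sets, 2 of 2 at P7 and 2 of 5 of P1 or P7. Of the last 2, 1 was the cell with microglial markers, at 327.8 RPKM. Without cells marked by glia, microglia or vessels the difference from Aldh1a1 cells was 26.99 points, against 26.9 with them. Nrp1, a receptor subunit for class 3 semaphorins, went the other way, in 10.7% of AV-low cells and 58.3% of Aldh1a1 cells, 47.6 points fewer (interval of the difference -57.8 to -33.6). The medians of Nrp1 in AV-low cells were at most 0.196 RPKM in every set. Those of Aldh1a1 cells lay between 8.74 and 34.99 RPKM, apart from 0.152 RPKM in the 5 cells of P7. Of 27 tested genes of this list, Sema5b, Epha7 and Ncam2 were higher and Nrp1, Epha5, Cdh11 and Erbb4 lower.

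The genes with the most even differences from Aldh1a1 cells over both stages were then taken by rule, as the 15 with the largest smaller-of-2-stages difference in each direction. The first of the higher genes were Slc7a3, a cationic amino acid transporter gene, at 4.68 at E18.5 and 3.77 at P1, Spats2l at 4.09 and 3.24, and Spock3, a secreted proteoglycan gene, at 3.63 and 3.22 in mean log2(RPKM + 1). Dhrs3 differed by 2.92 and 3.76. Slc7a3 was over 10 RPKM in 43 of 56 AV-low and 24 of 120 Aldh1a1 cells, Spats2l in 48 and 35, and Spock3 in 40 and 29. Gucy2c, which encodes a receptor guanylyl cyclase, was found in 64.3% and 10%, or 36 of 56 and 12 of 120 cells. The other higher genes were Gng4, Lypd1, Ntf3, Chrna4, Eno2, Bcl11a, Vsnl1, Ryr3, Yif1b and Il13ra1, each at least 1.95 at both stages. Among the 5 AV-low and 11 Aldh1a1 cells of P1 or P7, which took no part in the choice, 11 of the 15 were above 0 and Dhrs3 (-0.52), Eno2 (-2.09), Bcl11a (-0.03) and Il13ra1 (-0.96) were below. Of these 5 AV-low cells, the one with microglial markers had Spats2l at 1086 RPKM and Gucy2c at 368.5 RPKM. Without cells with at least 3 microglial markers, 4 AV-low and 10 Aldh1a1 cells were left, with 12 of the 15 above 0. At P7, with 2 and 5 cells, 14 of the 15 were above 0 and Bcl11a was at -0.29. The share of all entries above 0 is not given for P7 or for P1 or P7, so these counts have no background. At P7 a median of 8709.5 entries was detected in AV-low cells and 6019 in Aldh1a1 cells.

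The lower genes were led by Nrp1, at -3.16 at E18.5 and -2.81 at P1, and Grp, at -2.72 and -3.68. Gfra1 followed at -3.45 and -2.44 and Car4, a membrane-bound carbonic anhydrase gene, at -2.36 and -2.41. Igfbp2, Trpv1, Trp53i11, Elovl3, Gm12184, Cdh11, Ntm, Pitx3, Chd7, Hs3st1 and Sox4 were the others, between -1.50 and -2.96 at each stage. Elovl3 (chr19:46131897-46135694, plus strand) overlaps the end of Pitx3 (chr19:46135685-46148326, minus strand). Strand was not used, so these may not be separate differences, and this was not tested. All 15 lower genes were below 0 among the cells of P1 or P7, with and without the cells with microglial markers. At P7, 12 were below 0, while Gfra1 (2.79) and Elovl3 (0.63) were above and Car4 was at 0. The share of all entries below 0 is likewise not given for P7 or for P1 or P7. For 3 lists that the study drew from these libraries, 23 of 30 tested T-Dat-high genes were higher in AV-low cells and none lower (median 1.72), and 21 of 30 AT-Dat-high genes were lower and none higher (median -1.39). Of 27 tested VT-Dat-high genes 7 were higher and 1 lower. These lists were chosen on the same cells and are not independent evidence. Ntf3, Gch1, Chrna4, Spats2l, Gng4, Spock3, Vsnl1 and Gucy2c are in the T-Dat-high list, so the same holds for them. It also holds for the genes named here as lower that are in the AT-Dat-high list. These are Nrp1, Gfra1, Pitx3, Cdh11, Ntm, Trpv1, Chrna6, Nfib, Nfix, Tcf4, Kit, Epha5, Erbb4, Cd24a, Kcnip1 and Kcnab1.

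**Figure D3:**
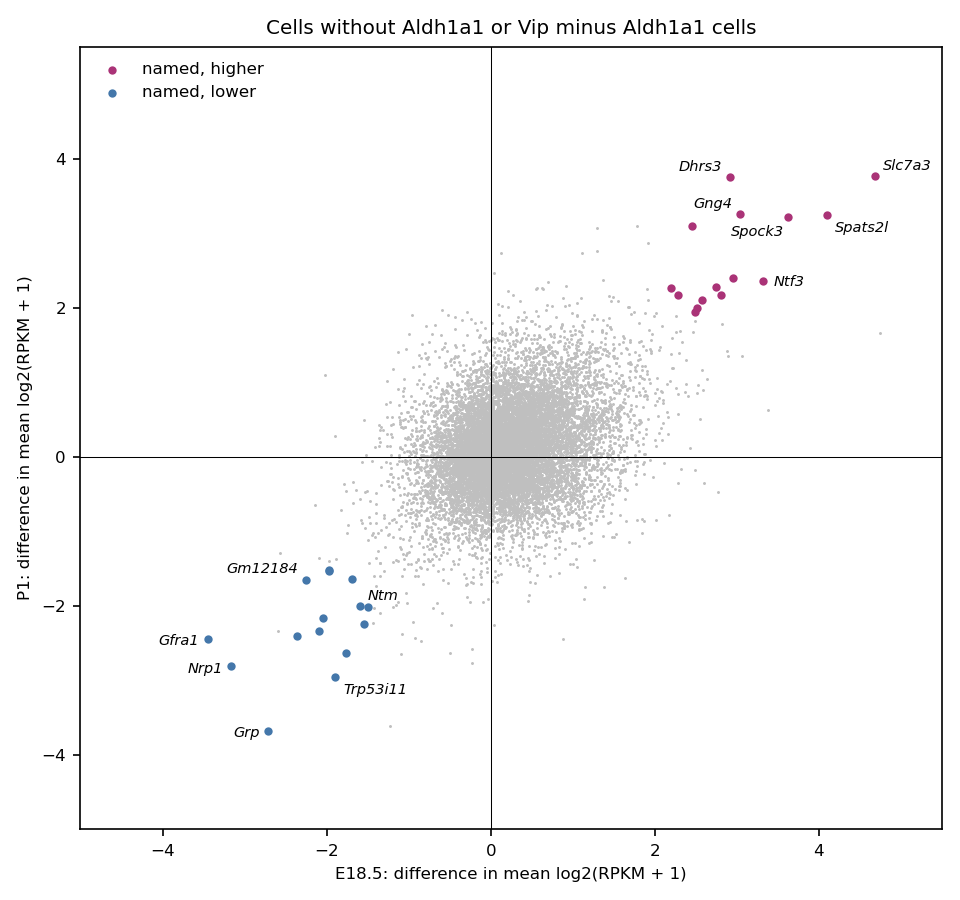
Difference in mean log2(RPKM + 1) between AV-low and Aldh1a1 cells at E18.5 (horizontal axis) and P1 (vertical axis), 1 point per gene entry, with the 15 higher and 15 lower genes taken by rule in colour. Slc7a3 (4.68 and 3.77) and Spats2l (4.09 and 3.24) lie in the upper right, and Nrp1 (-3.16 and -2.81), Grp (-2.72 and -3.68) and Gfra1 (-3.45 and -2.44) in the lower left.

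Against Vip cells the comparison across genes rested on P1 alone, with 20 AV-low and 15 Vip cells, since the other stages had fewer than 10 cells in a group. Of the 15, 8 were nearer the limit, with Vip of 12.8 to 116.3 RPKM, and 7 were Vip-high cells. Of 14036 entries tested 17.4% passed the threshold, 11.6% higher and 5.81% lower in AV-low cells, so 66.5% of those past it were higher. With the cells of P1 or P7 counted as P1 that split was 54.7%, and with differences taken within each set 56.5%. The share past the threshold was 7.74% with all stages pooled and 2.58% with a pseudocount of 10. Against the 7 Vip-high cells of P1 alone it was 26.9%, of which 47.6% were higher. The sets also differed, with 13 of 20 AV-low and 5 of 15 Vip cells from the P1 plate with spike-in, and their part in the differences was not tested. Chrna4 was higher by 3.36 on the log2 scale, Spats2l by 3.21, Vsnl1, a neuronal calcium sensor gene, by 3.34, and Cplx1, a gene for the vesicle fusion protein complexin-1, by 3.28. Against the Vip-high cells of P1 these differences were 5.91, 4.47, 5.86 and 4.27, and against those nearer the limit 1.13, 2.11, 1.14 and 2.42. Several other genes taken by the same rule had the opposite sign among the 29 AV-low and 9 Vip cells of E18.5. Of the higher genes these were G6pdx (-0.93), Golt1b (-0.82), Foxred1 (-0.80) and Mrpl55 (-0.40). Of the lower genes these were Dhx40 (1.28), Togaram2 (0.96), Csnk1e (0.84), Wdr61 (0.68), Cck (0.50) and Drc3 (0.13). Apart from Cck they are named only for that reason.

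Of 30 tested VT-Dat-high genes, a list that the study drew from these cells, 14 were lower than in Vip cells and 1 was higher (median -0.87), which is not independent evidence of a direction. Gipr, Anxa5, Tdh and Rspo3 below are in that list. Gipr, the receptor gene for the gut peptide GIP, was over 10 RPKM in 5 of 56 AV-low cells (8.93%) and 25 of 36 Vip cells (69.4%), 60.5 points fewer (interval of the difference -74.05 to -41.2), and the AV-low share was lower in each of the 5 sets. Anxa5, an annexin gene, was found in 25% and 69.4%. Tdh was found in 1 of 56 and 19 of 36 cells, and Rspo3, which encodes a secreted enhancer of Wnt signalling, in 1 of 56 and 15 of 36. These were mostly Vip-high cells, in which Gipr was found in 20 of 22, Anxa5 in 21, Tdh in 19 and Rspo3 in 14, against 5, 4, 0 and 1 of the 14 nearer the limit. Of 19 tested neuropeptide genes Penk and Vgf were higher than in Vip cells and Cck, Grp and Gal lower. Over all entries tested against Vip cells 11.6% were higher and 5.81% lower. Cck was lower by -2.99 at P1 but differed by 0.50 at E18.5. Chrna4 (69.6 points, 51.1 to 81.4), Ntf3 (55.6 points, 35.5 to 69.1), Gch1 (48.4 points, 29.7 to 63.9) and Vwc2l (41.5 points, 21.8 to 56) were the other way. Against Vip-high cells alone the differences were 90.1 points for Chrna4 (70.5 to 95.2), 75 for Ntf3 (55.5 to 84.5), 70.1 for Gch1 (47.2 to 83.5) and 46.3 for Vwc2l (23.5 to 60.2). These points pool the stages. The 22 Vip-high cells were 5 of E18.5, 7 of P1 and 10 of P7, whereas 2 of the 56 AV-low cells were of P7, so group and stage cannot be told apart. Of the neurotrophic list, Ndnf, Ntf3, Bdnf, Ntrk2, Fgf13 and Kit were higher among 13 tested and Kitl was lower. Kitl was found in 12 of 22 Vip-high cells and in 0 of the 14 nearer the limit.

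Of other genes in lists that the study drew from these cells, Oprk1, the kappa opioid receptor gene, was found in 58.9% of AV-low, 25.8% of Aldh1a1 and 22.2% of Vip cells. Vwc2l and Rprm were in a further list of 6, of which Vwc2l, Rprm and Gucy2c were higher than in Aldh1a1 cells. Vwc2l, a secreted protein gene, was found in 55.4%, 24.2% and 13.9%. Rprm, a gene for a protein linked to cell-cycle arrest, was found in 50%, 13.3% and 36.1%. Among AV-low cells it was found in 11 of 15 and 9 of 14 on the E18.5 plates, 5 of 13 and 2 of 7 in the P1 sets, 0 of 2 at P7 and 1 of 5 of P1 or P7, where that cell had 532 RPKM.

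AV-low cells were not uniform, and several listed genes differed between cells with and without Ndnf. Ndnf was over 10 RPKM in 17.9% of AV-low, 6.67% of Aldh1a1 and 2.78% of Vip cells, 11.2 points above Aldh1a1 cells (1.34 to 23.6). The gene lies on the plus strand at chr6:65671590-65712326 (GRCm38). The 10 cells with Ndnf over 10 RPKM came from both E18.5 plates (3 of 15 and 3 of 14), both P1 sets (2 of 13 and 1 of 7) and the cells of P1 or P7 (1 of 5). Calb1, which encodes calbindin, was over 10 RPKM in 1 of the 10 and in 40 of the other 46. Several genes of the nigral list went the other way. Sox6 was in 3 of 10 and 1 of 46, Fgf20 in 5 and 1, and Igf1 in 5 and 3. Lmo3 was in 9 and 17, Kcns3 in 4 and 1, and Sncg in 4 and 5. Ndnf, which made the split, is in that list too, and no count is given for its other members. Not every gene went this way, since Anxa1 and Vcan were each over 10 RPKM in a cell of P1 or P7 with Ndnf listed at 0. Slc6a3 had medians of 2252 and 742 RPKM in cells with and without Ndnf. Of the tegmental genes Otx2 was in 0 of 10 and 13 of 46 and Cck in 2 and 32. Calb2 was in 9 of 10 and 46 of 46, with medians of 60.1 and 259.6 RPKM. No count in this split is given for other tegmental genes, such as Tacr3, Pdia5, Cadps2 and Grp. The counts thus do not describe either list as a whole. The split was made after values had been seen and no test was attached to it.

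Other genes also fell unevenly between the cells with and without Ndnf. Sema5b was in 0 of 10 and 16 of 46, Slc17a6 in 2 and 23, Dhrs3 in 2 and 34, Bcl11a in 1 and 30, and Chrna6 in 6 and 40. Ntf3 did not follow Ndnf, in 8 of 10 and 34 of 46, and neither did Th, in 10 of 10 and 44 of 46. Of the 56 cells, 44 had Ndnf or Ntf3 over 10 RPKM and 12 had neither. No AV-low cell had Sox6 with Calb1 or Sox6 with Otx2, while all 13 cells with Otx2 had Calb1. Sox6 was over 10 RPKM in only 4 of the 56, too few to show that it excluded either gene. Among the 8 Aldh1a1 cells with Ndnf, Sox6 was in 0 and Calb1 in 6, against 3 and 93 of the others, and Otx2 was in 0 of 8 and 47 of the others. Levels across the 56 cells had Spearman correlations of 0.57 between Ndnf and Sox6, -0.56 between Ndnf and Calb1 and -0.62 between Slc6a3 and Slc17a6, given as descriptions since the cells share 5 sets of libraries and 3 stages.

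**Figure D4:**
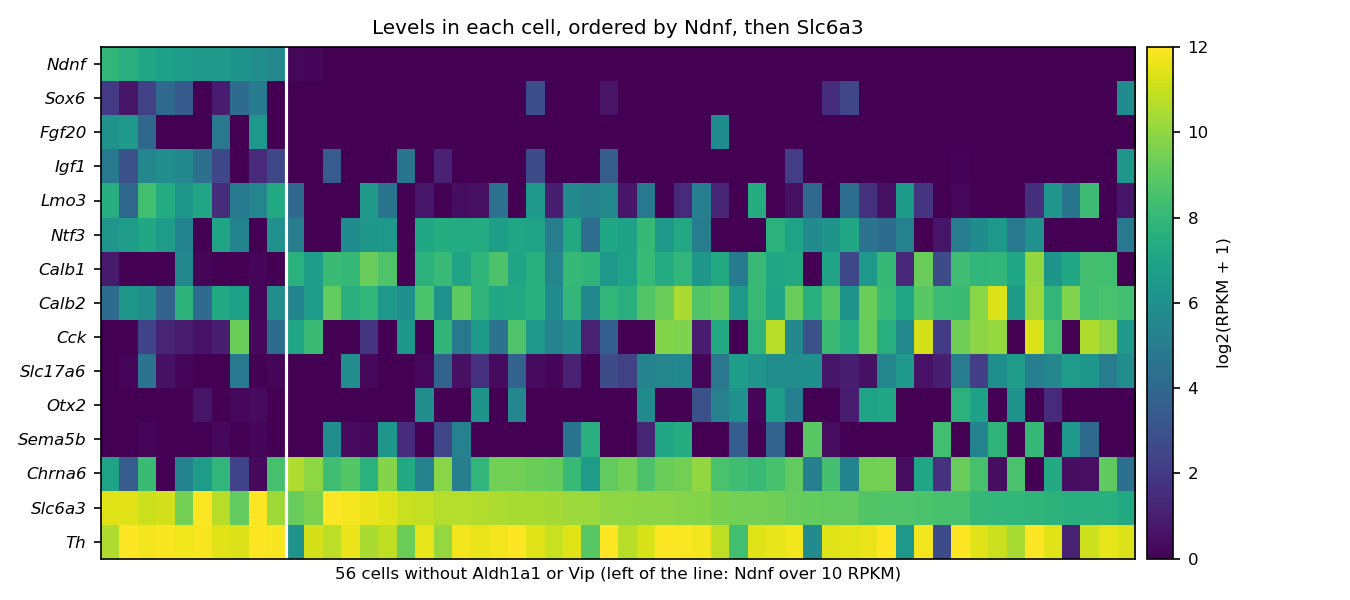
Levels of 15 genes in each of the 56 AV-low cells, as log2(RPKM + 1) by colour, with cells ordered by Ndnf and then by Slc6a3 and a white line after the 10 cells with Ndnf over 10 RPKM. Fgf20 was found mainly left of the line and Calb1 (40 of 46 cells), Otx2 and Sema5b right of it, and cells with lower Slc6a3 more often had Slc17a6.

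The same thresholds were applied to stages and a genotype that did not choose the AV-low cells. At P90, 24 heterozygous cells met them beside 37 Aldh1a1 cells, at E15.5 19 beside 19, and at E13.5 19 beside 6. Of the 15 genes taken as higher around birth, 14 had a difference above 0 at P90 and 9 were past 1, where 63.7% of all entries tested were above 0 and 8.43% past 1. Of the 15 lower genes 13 were below 0 and 10 past -1, where 2.27% of all entries were. At E15.5 the counts were 14 above 0 (7 past 1) and 14 below 0 (7 past -1), with 57.8% of all entries above 0, 11.9% past 1 and 5.12% past -1. The P90 cells were dissociated with papain and the younger ones with other kits.

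**Figure D5:**
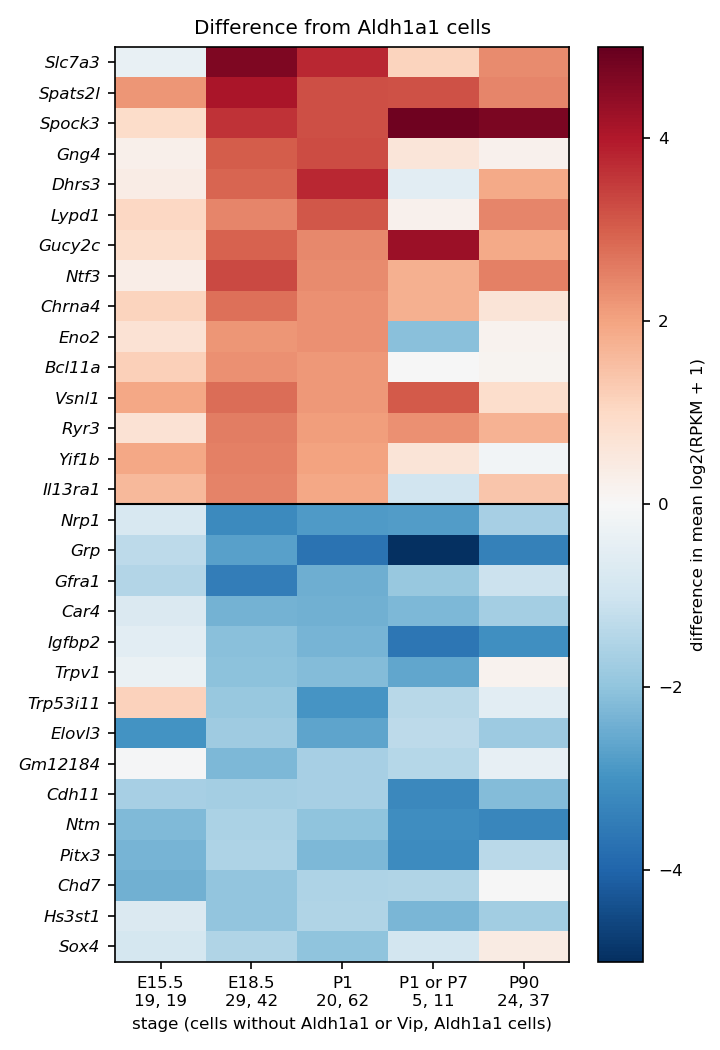
Difference in mean log2(RPKM + 1) between cells meeting the AV-low thresholds and Aldh1a1 cells at E15.5, E18.5, P1, P1 or P7 and P90, for the 15 higher (above the line) and 15 lower genes taken by rule at E18.5 and P1; numbers under each column are cells of the 2 groups. The signs held at P90 for 14 of 15 higher and 13 of 15 lower genes, where 63.7% of all entries tested were above 0. Among cells of P1 or P7 they held for 11 and 15, with no share over all entries given. P7, with 2 and 5 cells, is not drawn.

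Ntf3 was over 10 RPKM in 1 of 19 such cells at E13.5 and 1 of 19 at E15.5, and in 17 of 24 at P90 (70.8%, 48.9 to 87.4) against 13 of 37 Aldh1a1 cells (35.1%). Calb2 was found in 1 of 19, 5 of 19 and 24 of 24 at those stages, and Sema5b in 9 of 19, 7 of 19 and 17 of 24. In Aldh1a1 cells Sema5b was found in 4 of 6, 1 of 19 and 2 of 37, so at E13.5 the order was the other way. Bdnf at P90 was in 18 of 24 and 10 of 37 and Rprm in 13 of 24 and 3 of 37. Ndnf at P90 was in 3 of 24 (12.5%, 2.66 to 32.4) and 7 of 37 (18.9%, 7.96 to 35.2), intervals that overlap widely.

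With both Pitx3 alleles replaced by eGFP, cells meeting the thresholds were still found at P1. At E13.5, 1 homozygous cell met them (0.538%, 0.0136 to 2.96), the only one there with Slc6a3 over 150 RPKM, against 19 of 140 heterozygous cells (13.6%, 8.37 to 20.4). The homozygous cells of E13.5 came from plates with spike-in and the heterozygous ones from a set without, so genotype cannot be told apart from set there. The 10 cells of P1 were 5.35% of homozygous cells (2.59 to 9.61) against 7.63% of heterozygous cells of P1, a difference of 2.29 points (-2.69 to 6.84). Without cells with oligodendrocyte-lineage markers the shares were 5.52% (2.56 to 10.2) and 8.48%. The homozygous cells had spike-in, and against the heterozygous plate with spike-in the difference was 8.48 points (1.5 to 17.2). Aldh1a1 cells were 2.67% of homozygous and 23.7% of heterozygous cells, 20.99 points apart (15.1 to 26.7), or 34.6 points apart (24.8 to 44.8) against the 37.2% of the plate with spike-in. Among cells over 150 RPKM of Slc6a3, those meeting the thresholds were 10 of 16 (62.5%, 35.4 to 84.8) in homozygous cells, 20.6% in heterozygous cells and 24.5% on the heterozygous plate with spike-in. A homozygous cell that lost its Aldh1a1 transcript would also meet the thresholds. Such cells cannot be told apart here from counterparts of AV-low cells. The paper, grouping cells by clusters, reported that few homozygous cells contributed to its T-Dat-high and AT-Dat-high subtypes. Ntf3 was over 10 RPKM in 6 of the 10 homozygous cells, Gch1 in 9, Sema5b in 7, Rprm in 9, Calb2 in 9 and Ndnf in 3.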

How the data were processed

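The authors aligned 43-base reads with STAR 2.3.0 to mm10 plus eGFP and spike-in sequences, kept unique alignments and, with rpkmforgenes and Ensembl 69, deposited a read count and an RPKM value for each of 39468 entries per library. RPKM as deposited by the authors was used throughout, and the deposited counts gave depth (reads summed per cell), thinning to 100000 reads and reads scaled to a common total per cell. Entries without a symbol held 0.211% of reads. Strand was not used in what the sources describe, so overlapping genes cannot be told apart. No doublet caller was run. A pair of libraries of different labels with a correlation above 0.95 of log2(scaled reads + 1) was joined into 1 cell (mean RPKM, summed reads), a step decided after seeing the data.

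The members, gene lists and comparisons were chosen with earlier results of these data known. Genes named beyond the lists were, per comparison, the 15 higher and 15 lower with the largest smallest difference over stages with at least 10 cells in both groups and one sign, leaving out Slc6a3, Aldh1a1, Vip, eGFP and entries with no symbol. Differences are of mean log2(RPKM + 1), which understates low genes. Python 3.11.15, numpy 2.4.6, pandas 2.3.3, scipy 1.17.1 and matplotlib 3.10.9 were used, and the steps were tested on simulated data. Alternatives covered the thresholds, pseudocount, filter, unit, depth, stage weights, marked cells, each set of libraries and the joined pairs. Some results are not reported here.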

Additional observations from a re-analysis of the deposited data

Results flagged for a closer look

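Tacr3 was higher in AV-low than in Aldh1a1 cells around birth, by 2.003 in mean log2(RPKM + 1) over E18.5 and P1, and lower at P90, by -1.68 (8 of 24 against 22 of 37 cells over 10 RPKM). Lrfn5, which encodes a synaptic adhesion protein, differed by 2.21 over E18.5 and P1 and by -1.07 at E15.5 (3 of 19 against 6 of 19 cells). Trp53i11 differed by -2.43 over E18.5 and P1 and by 1.15 at E15.5. The 3 genes were singled out because the difference from Aldh1a1 cells passed the threshold around birth and passed it in the opposite direction at E15.5 or P90. Other genes changed sign by less, such as Slc7a3 (-0.36 at E15.5), and no change of sign was tested.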

How the results depend on the processing

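No paired analysis was possible because the numbers in the labels only name cells and no result comes from a test. The number of AV-low cells was 56 and lay between 47 and 68 under other Slc6a3, upper Aldh1a1 and Vip, cell-filter and thinning settings (55 after thinning, 51 of them shared), but was 9 with Aldh1a1 and Vip of 1 RPKM or less, too few in any stage for a comparison across genes. The share of entries past the threshold against Aldh1a1 cells, 5.56% (795 entries, 82.4% of them higher), became 0.475% with a pseudocount of 10 (68 entries, 66.2% higher), 17.8% with 0.1, 3.31% of more entries tested with no filter (795 again) and 10.3% without P1 with spike-in, where only E18.5 was left. Against Vip cells the share of 17.4% (2438 entries, 66.5% higher) became 2.58% and 36.1% with those pseudocounts, 11% with no filter and 7.74% with all stages pooled. It could not be computed without either P1 set, since a group then had fewer than 10 cells. The cause of these shifts was not tested.

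Alternatives chosen after seeing the data left pairs of libraries unjoined, left paired cells out or counted them as P1, left out cells marked by glia, microglia or vessels, took differences within each set of libraries before averaging, or took only Vip cells with Vip over 1000 RPKM. AV-low cells then numbered 60 with every library as deposited and 51 without paired cells. With every library as deposited the shares of entries past the threshold were 4.68% and 15.6% (60.1% higher), with paired cells as P1 4.59% and 15.5% (54.7% higher), without marked cells 6.34% and 18.7%, and within sets 5.39% (80.3% higher) and 17.9% (56.5% higher). The P1 sets held 5 and 10 Vip cells. With Vip over 1000 RPKM (7 cells of P1) the share against Vip cells was 26.9% (47.6% higher), and Syt1 reversed (-0.13).

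Of the 15 genes taken by rule in each direction, 15 higher and 12 lower against Aldh1a1 cells stayed past the threshold in all 14 alternatives that could change them, 13 and 11 against Vip cells in 11, and none reversed. No alternative against Vip cells used E18.5 alone, where several of these genes had the opposite sign. At a 50 RPKM limit, signs reversed for Ntrk3 (-1.31 points) and Pcdh19 (-0.595) against Aldh1a1 cells and for Kcnd3 (-2.78) and Neto2 (-1.19) against Vip cells. Against Vip cells Zfp804a reversed without P7 (1.79 points), and with Aldh1a1 and Vip of 1 RPKM or less signs reversed for Rbfox3 (-10.1), Id4 (14.1), Lmo3 (5.05), Kit and Dcc (both -5.05), Penk (-1.01), Syn2 (12.1) and Zfp804a (4.04). Shares at P7 rest on 2 AV-low cells.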
